A study of Homo sapiens with 10 samples.

Results

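Catecholamines are made, packaged, taken back up and broken down by a small set of enzymes and carriers, and 9 of the genes that encode them are described here across 2 human neuroblastoma cell lines. They are TH, DDC, DBH, PNMT and GCH1 for synthesis, SLC18A1 and SLC18A2 for storage in vesicles, SLC6A2 for uptake at the cell surface, and MAOA for breakdown. All 9 were found by gene symbol in the array annotation, each with 1 probe set, among 21448 gene probe sets tested. Total RNA was hybridised to 10 whole-transcript arrays in 4 groups. SK-N-FI cells were exposed to 30 µM BG-P1600-TAT for 48 h (2 arrays) or to PBS for the same time (2 arrays). SK-N-AS cells were exposed to 30 µM of a compound that their sample titles give as BG-P-TAT, read here as BG-P1600-TAT (3 arrays, numbered 28, 29 and 30), or to PBS (3 arrays, numbered 25, 26 and 27). By the series title, the conjugate targets the norepinephrine transporter and the integrin αvβ3. Both lines are established and kept in culture. For SK-N-AS no label gives separate cultures, and the spread among its arrays may be technical.

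Noradrenaline is built from tyrosine in steps. TH hydroxylates tyrosine to L-DOPA, the rate-limiting step, with tetrahydrobiopterin as cofactor, and GCH1 catalyses the first step in making that cofactor. DDC removes the carboxyl group to give dopamine, which the vesicular carriers load into granules, where DBH converts it to noradrenaline. PNMT methylates noradrenaline to adrenaline, SLC6A2 (the norepinephrine transporter) recovers released noradrenaline, and MAOA oxidises amines in the mitochondrial outer membrane. Neuroblastoma arises from the sympathetic lineage, and uptake through SLC6A2 is used in its imaging and radiotherapy.

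Values are log2 signals. A gene is called above background where its signal exceeded that array's own limit, set at the 95th percentile of 612 negative controls. That limit lay at 8.26 and 7.59 on the SK-N-FI treated arrays and at 7.61 and 7.44 on the SK-N-FI control arrays. On SK-N-AS arrays it lay between 6.75 and 7.23. Whether normalization was done line by line was not tested. Median signals of gene probe sets lay between 6.61 and 6.62 on SK-N-FI arrays and between 5.75 and 5.81 on SK-N-AS arrays. Medians of the negative controls lay between 4.02 and 4.05 and between 3.86 and 4.04. The log2 difference of SK-N-FI minus SK-N-AS had a median over all gene probe sets of 0.62 in treated and 0.61 in control cells. Levels set across lines carry such an offset, in an amount that was not the same for every gene. With quantile normalization over all 10 arrays, the difference in control cells went from 2.60 to 0.93 for PTS and from 2.26 to 2.04 for SLC31A1. Among the SK-N-AS arrays, a first principal component with 50.04% of the variance set treated array 28 (score -31.0) and control array 25 (-57.5) apart from treated array 30 (50.6), with the others between 4.33 and 26.9. As a check of the lines, all 10 measured noradrenergic markers, among them PHOX2A and GAP43, lay above background on all 4 SK-N-FI arrays, against 4 of 10 on all 6 SK-N-AS arrays. Of all gene probe sets, 38.1% did so on all SK-N-FI arrays and 30.9% on all SK-N-AS arrays. The summed log2 signal of these markers was 118.5 to 121.7 in treated and 117.9 to 121.3 in control SK-N-FI cells, against 73.9 to 75.6 in treated and 73.9 to 77.0 in control SK-N-AS cells. As deposited, limma called 10 of these 10 higher in SK-N-FI in treated and 9 in control cells. Over all probe sets, 47.8% were called higher in each. After quantile normalization 7 of the 10 were called higher and 1 lower, in treated as in control cells. Over all probe sets that scaling called 22.2% higher and 23.4% lower in treated cells, and 22.8% and 23.9% in control cells. In control cells the lower marker was CHGA (log2 difference -1.23), and HAND2 and GATA3 were not called. Of 9 measured mesenchymal markers, 3 lay above background on all SK-N-FI arrays and 6 on all SK-N-AS arrays, beside the same 38.1% and 30.9%. FN1 and FOSL1 did so on every SK-N-AS array and on no SK-N-FI array. Between the lines, limma called 5 of the 9 lower in SK-N-FI and 2 higher, in treated as in control cells. Over all probe sets, 11.2% were called lower in treated and 11.5% in control cells. The 2 higher markers were SNAI2 (log2 difference 1.43 in treated and 1.62 in control cells) and CD44 (2.67 and 2.70). After quantile normalization 7 of the 9 were called lower and 1, CD44, higher, in treated as in control cells, and SNAI2 was not called. The mesenchymal sum was 69.3 to 69.8 in treated and 68.4 to 70.0 in control SK-N-FI cells, against 76.1 to 79.2 in treated and 76.7 to 80.1 in control SK-N-AS cells. The Schwann markers S100B and ERBB3 were below background on all 10 arrays. These marker levels move with the line differences, and their part in them was not tested.

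Sequences were taken from a set of RefSeq start-site windows (GRCh38.p14), each of 250 bases before to 50 bases after a gene's start. Of the 9 members, 4 had a window in this set: DBH, SLC18A2, MAOA and DDC, the last with 2 windows. They are shown because the set used here held no window for the other members. Capitals mark TGACG (a half-site of the cyclic AMP response element), ATTA (the core bound by homeodomain factors) and GGGCGG (the GC box bound by Sp1) on either strand. Each sequence runs 5′ to 3′ on the gene's own strand.
DBH (chr9:133636113-133636412, plus strand): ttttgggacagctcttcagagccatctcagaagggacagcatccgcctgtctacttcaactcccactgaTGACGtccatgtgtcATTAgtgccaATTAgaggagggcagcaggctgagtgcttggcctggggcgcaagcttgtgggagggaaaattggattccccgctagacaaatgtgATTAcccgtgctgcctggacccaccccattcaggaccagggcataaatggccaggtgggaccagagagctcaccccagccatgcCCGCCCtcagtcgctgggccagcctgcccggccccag
SLC18A2 (chr10:117240864-117241163, plus strand): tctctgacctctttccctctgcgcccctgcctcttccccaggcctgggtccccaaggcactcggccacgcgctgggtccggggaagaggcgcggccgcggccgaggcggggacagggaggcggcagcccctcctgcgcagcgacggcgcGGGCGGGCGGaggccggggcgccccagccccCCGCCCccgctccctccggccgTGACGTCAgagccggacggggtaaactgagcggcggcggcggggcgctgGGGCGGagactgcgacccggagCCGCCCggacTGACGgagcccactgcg
MAOA (chrX:43656049-43656348, plus strand): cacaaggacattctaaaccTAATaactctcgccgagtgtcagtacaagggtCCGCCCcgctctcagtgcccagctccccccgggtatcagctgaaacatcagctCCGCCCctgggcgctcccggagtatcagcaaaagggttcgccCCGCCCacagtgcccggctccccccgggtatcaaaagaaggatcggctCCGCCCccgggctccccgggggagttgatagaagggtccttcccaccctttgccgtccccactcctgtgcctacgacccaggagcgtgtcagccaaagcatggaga
DDC window 1 (chr7:50565356-50565655, minus strand): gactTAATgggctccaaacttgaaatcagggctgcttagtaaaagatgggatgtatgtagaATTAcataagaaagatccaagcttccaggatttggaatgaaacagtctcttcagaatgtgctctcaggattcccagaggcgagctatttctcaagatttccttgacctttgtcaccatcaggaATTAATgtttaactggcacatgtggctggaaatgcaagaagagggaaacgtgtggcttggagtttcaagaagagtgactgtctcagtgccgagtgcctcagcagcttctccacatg
DDC window 2 (chr7:50561022-50561321, minus strand): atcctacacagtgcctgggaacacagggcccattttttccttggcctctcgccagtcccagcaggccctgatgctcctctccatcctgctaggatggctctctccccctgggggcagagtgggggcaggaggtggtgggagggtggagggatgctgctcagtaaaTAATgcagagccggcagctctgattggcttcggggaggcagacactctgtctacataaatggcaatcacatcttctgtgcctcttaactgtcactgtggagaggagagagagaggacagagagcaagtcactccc

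The DBH window held 1 TGACG at position -181 and 3 ATTA, at positions -166, -156 and -71, counted from the first base of the match to the start. Over 35116 RefSeq windows of the same length, 24.6% held TGACG and 50.2% held ATTA on either strand. SLC18A2 held no ATTA, 5 GC boxes and the palindrome TGACGTCA at position -48, a full cyclic AMP response element that contains overlapping half-sites on both strands and occurs in 1.85% of windows. The MAOA window held 4 GC boxes, at positions -199, -146, -104 and -56, where 45.0% of windows held at least 1. DDC window 1 held 4 matches to ATTA, 2 of them overlapping, and DDC window 2 held 1, with no GC box in either. Such matches describe letters only, and no binding was measured.

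The first question was which of these genes each line expressed. SK-N-FI had DDC, DBH, GCH1, SLC18A1, SLC6A2 and MAOA above background on all 4 arrays, and TH, PNMT and SLC18A2 on none. SK-N-AS had DDC, GCH1 and MAOA above background on all 6 arrays and the other 6 genes on none. By comparison, 38.1% of gene probe sets were above background on all SK-N-FI arrays and 30.9% on all SK-N-AS arrays. A pattern of all SK-N-FI arrays and no SK-N-AS array was shown by DBH, SLC18A1 and SLC6A2, 3 of the 9, and by 4.10% of gene probe sets. In cultures measured in bulk, fewer expressing cells and less RNA per cell cannot be told apart.

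**Figure D1:**
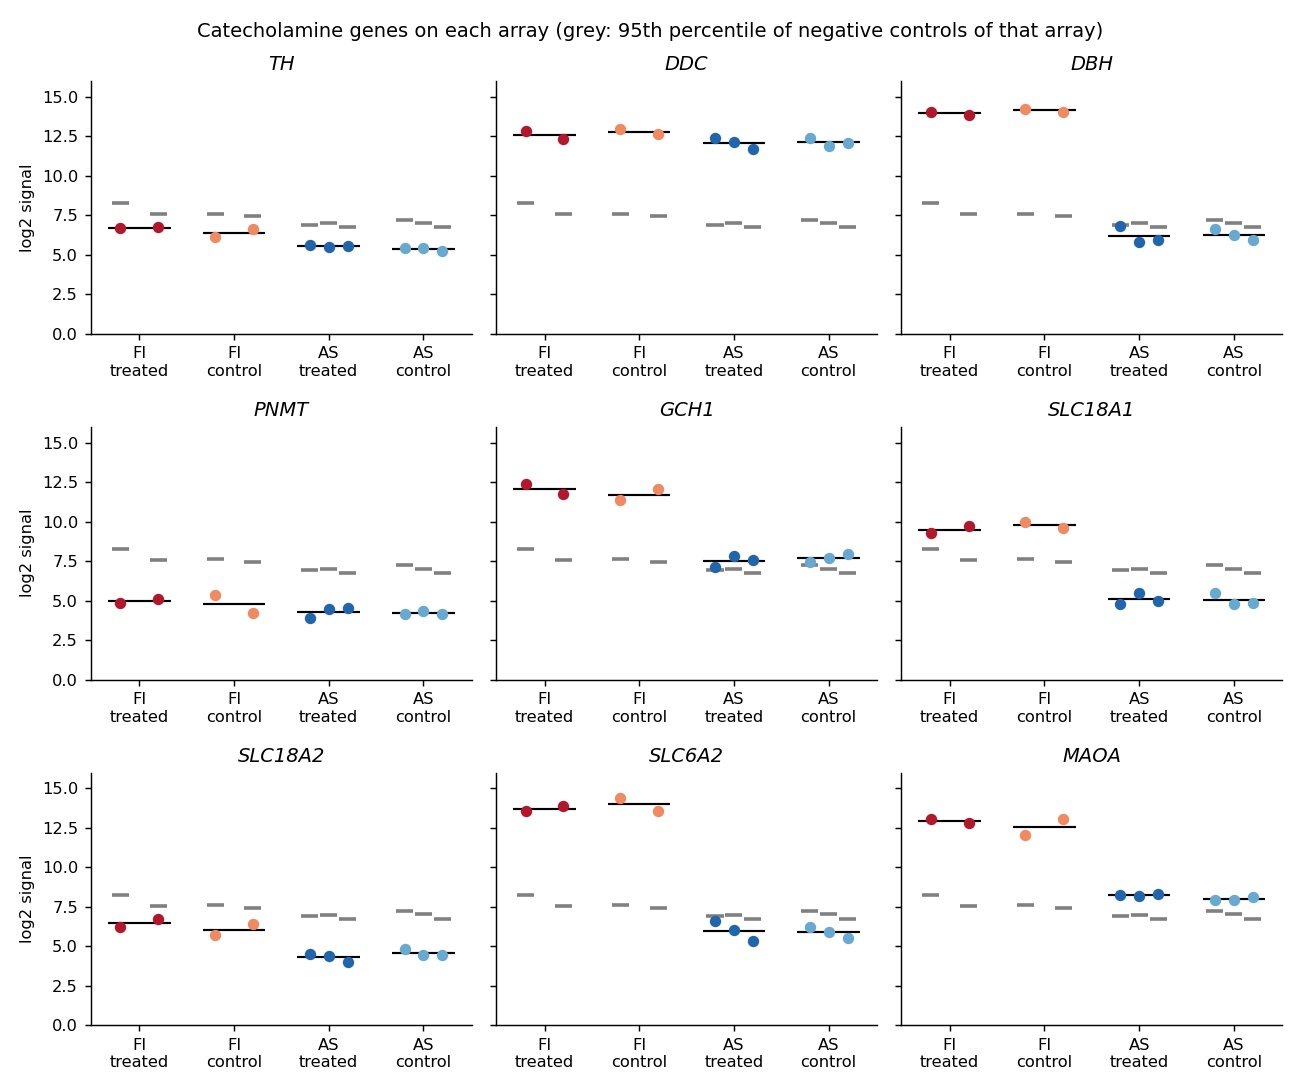
Log2 signal of the 9 catecholamine genes on each of the 10 arrays, by group; points are arrays, black lines group means and grey bars the 95th percentile of the negative controls of that array. DBH and SLC6A2 lie between 13.55 and 14.41 on the SK-N-FI arrays and at or below 6.85 on the SK-N-AS arrays, DDC is above 11.7 on every array, and TH, PNMT and SLC18A2 lie below the grey bars throughout.

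TH, the rate-limiting enzyme, had log2 signals of 6.68 and 6.74 in treated and 6.13 and 6.66 in control SK-N-FI cells. In SK-N-AS it had 5.60, 5.51 and 5.53 in treated cells and 5.45, 5.45 and 5.21 in control cells. All 10 values lay below the limit of their own array, and the mean difference from that limit was -1.17 over the SK-N-FI arrays and -1.49 over the SK-N-AS arrays. TH was thus not above background in either line, and no ratio between the lines is given.

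GCH1, at the head of tetrahydrobiopterin synthesis, had 12.36 and 11.75 in treated and 11.37 and 12.05 in control SK-N-FI cells, with overlapping groups. In SK-N-AS it had 7.15, 7.83 and 7.56 in treated and 7.46, 7.68 and 7.98 in control cells, again overlapping, at a mean of only 0.66 above background. The lines were thus separated on every array, and the SK-N-FI level was 23.4-fold that of SK-N-AS in treated cells and 16-fold in control cells (limma, adjusted p = 1.04e-07 and 2.86e-07). After quantile normalization over all 10 arrays these ratios were 8.21 and 5.31. At the 99th percentile of the negative controls, GCH1 was not above background on all arrays of either line.

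DDC, which makes dopamine, was bright in both lines. It had 12.82 and 12.36 in treated and 12.99 and 12.62 in control SK-N-FI cells, and 12.39, 12.12 and 11.71 in treated and 12.40, 11.92 and 12.05 in control SK-N-AS cells. The lines overlapped in treated cells and did not in control cells, where the smallest SK-N-FI value exceeded the largest SK-N-AS value by less than the spread within either group. As deposited, the difference of SK-N-FI minus SK-N-AS was 0.52 in treated cells (95% interval -0.07 to 1.11, limma adjusted p = 0.119) and 0.68 in control cells (0.09 to 1.27, adjusted p = 0.0455). The direction turned with the scaling: after quantile normalization it was -0.76 in treated cells (adjusted p = 0.0353) and -0.54 in control cells (adjusted p = 0.116). Against the median difference of all probe sets, the deposited values were -0.10 and 0.07. Without control array 1 of SK-N-FI, the difference in control cells was 0.50 (adjusted p = 0.269), and it also missed the threshold without SK-N-FI control array 2 or SK-N-AS control array 26 or 27, so the control call rested on each of these arrays.

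DBH, the noradrenaline-forming enzyme, had 14.04 and 13.87 in treated and 14.24 and 14.05 in control SK-N-FI cells. In SK-N-AS it had 6.85, 5.84 and 5.96 in treated and 6.65, 6.27 and 5.94 in control cells, with no array above background, although array 28 came close to its limit of 6.92. The highest SK-N-AS values were on arrays 28 and 25, the arrays set apart by the first component, and the part of that component in the values was not tested. Since DBH was not above background in SK-N-AS, the ratio is a bound, in which the SK-N-FI mean is set against the mean of, on each SK-N-AS array, the higher of the background limit and the gene's own signal. DBH was at least 133-fold higher in SK-N-FI in treated cells and at least 141-fold in control cells, and at least 59.3-fold and 63.5-fold after quantile normalization (limma adjusted p = 1.79e-09 and 1.62e-09 as deposited).

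PNMT, which forms adrenaline, had 4.86 and 5.08 in treated and 5.37 and 4.19 in control SK-N-FI cells. It had 3.88, 4.47 and 4.51 in treated and 4.17, 4.35 and 4.13 in control SK-N-AS cells. The mean difference from the background limit was -2.85 over the SK-N-FI arrays and -2.69 over the SK-N-AS arrays, and neither line comparison passed the test (limma adjusted p = 0.0904 in treated and 0.158 in control cells).

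The vesicular carriers differed from each other. SLC18A1, known mainly from chromaffin cells of the adrenal medulla, had 9.25 and 9.7 in treated and 9.96 and 9.62 in control SK-N-FI cells, and 4.78, 5.51 and 4.97 in treated and 5.48, 4.79 and 4.88 in control SK-N-AS cells. All SK-N-FI arrays were above background and no SK-N-AS array was, so SLC18A1 was at least 5.98-fold higher in SK-N-FI in treated cells and at least 6.90-fold in control cells, or at least 2.06-fold and 2.27-fold after quantile normalization. The margin was smallest on treated array 1, whose background limit of 8.26 was the highest of the 10. SLC18A2, the carrier of sympathetic and brain neurons, had 6.21 and 6.74 in treated and 5.72 and 6.41 in control SK-N-FI cells, against 4.50, 4.37 and 4.04 in treated and 4.84, 4.44 and 4.49 in control SK-N-AS cells. Although all 4 SK-N-FI values exceeded all 6 SK-N-AS values and limma called the difference (adjusted p = 2.55e-05 in treated and 0.000549 in control cells), every value lay below its array's limit, and no ratio is given.

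SLC6A2, the transporter named as a target of the conjugate, had 13.57 and 13.87 in treated and 14.41 and 13.55 in control SK-N-FI cells. The treated values lay inside the range of the control values. In SK-N-AS it had 6.63, 6.04 and 5.32 in treated and 6.22, 5.89 and 5.56 in control cells, none above background. SLC6A2 was at least 114-fold higher in SK-N-FI in treated and at least 126-fold in control cells, and at least 49.3-fold and 56.5-fold after quantile normalization (limma adjusted p = 7.22e-09 and 4.63e-09 as deposited). As with DBH, arrays 28 and 25 gave the highest of the 6 SK-N-AS values.

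MAOA had 13.09 and 12.80 in treated and 12.04 and 13.06 in control SK-N-FI cells. In SK-N-AS it had 8.27, 8.22 and 8.29 in treated and 7.96, 7.94 and 8.13 in control cells, all above background by a mean of 1.19. It was 25.6-fold higher in SK-N-FI in treated cells and 23.3-fold in control cells, and 9.5-fold and 8.4-fold after quantile normalization (limma adjusted p = 3.97e-08 and 5.04e-08 as deposited). Both lines thus carried a measured MAOA signal, at unequal levels.

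**Figure D2:**
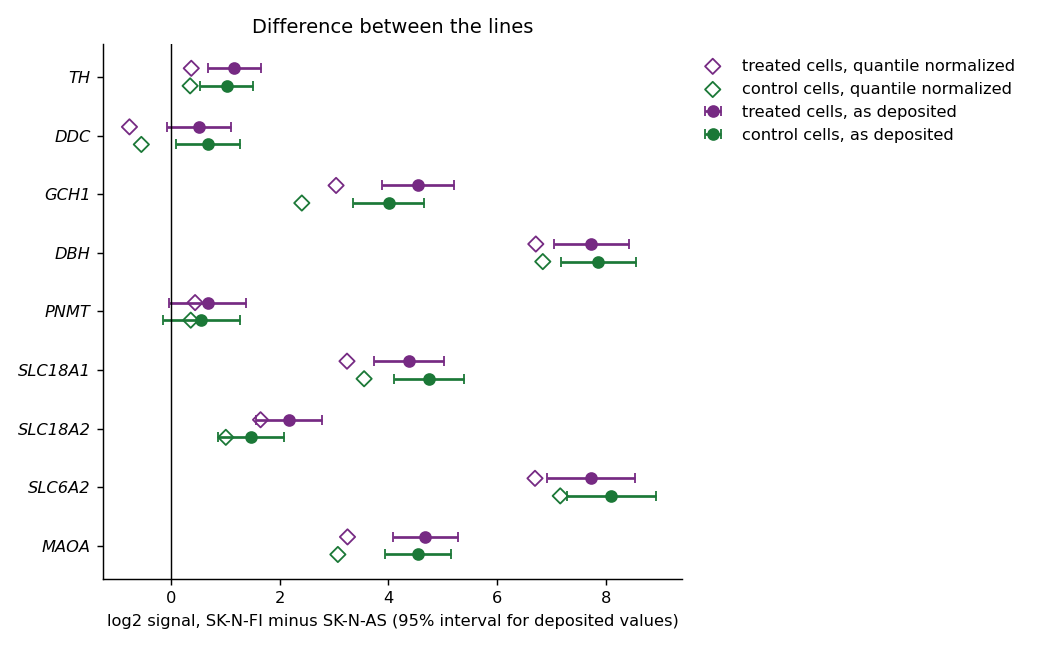
Difference in log2 signal, SK-N-FI minus SK-N-AS, for the 9 genes in treated (purple) and control (green) cells; filled points with 95% intervals are deposited values and open diamonds values after quantile normalization over 10 arrays. GCH1 and MAOA, above background on all 10 arrays, differ by 2.41 or more at every point, and DDC lies on either side of 0 depending on the scaling. DBH, SLC6A2 and SLC18A1 are plotted against SK-N-AS signals that were not above background, so their points are no measured ratio, and TH, PNMT and SLC18A2 were below background in both lines.

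Taken over the set, limma called 7 of 9 members higher in SK-N-FI in treated cells and 8 of 9 in control cells, with none lower, at an adjusted p threshold of 0.05. Both counts include TH (adjusted p = 0.00063 in treated and 0.00151 in control cells) and SLC18A2, whose signals were below background on all 10 arrays. Over all probe sets, 59% were called between the lines in treated cells (47.8% higher and 11.2% lower in SK-N-FI) and 59.3% in control cells (47.8% higher and 11.5% lower). After quantile normalization, 6 members were called higher and 1 (DDC) lower in treated cells, and 6 higher and 0 lower in control cells. Over all probe sets that scaling gave 45.5% called in treated cells (22.2% higher, 23.4% lower) and 46.7% in control cells (22.8% higher, 23.9% lower). How the arrays of a line were run and scaled cannot be told apart from the line.

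The second question was whether the conjugate changed these transcripts. In SK-N-FI none of the 9 members passed the test, 0 had an unadjusted p under 0.05, and 0% of all 21448 probe sets were called, with 611 at an unadjusted p under 0.05 (limma, n = 2 per group). Of the 6 members above background, GCH1 and MAOA had higher means in treated cells and the other 4 had lower means. For the genes above background, the log2 changes were -0.21 for DDC (95% interval -0.82 to 0.39), -0.19 for DBH (-0.70 to 0.31), 0.35 for GCH1 (-0.39 to 1.09), -0.32 for SLC18A1 (-0.91 to 0.28), -0.26 for SLC6A2 (-0.999 to 0.47) and 0.39 for MAOA (-0.42 to 1.2). These intervals exclude a 2-fold change in either direction for DDC, DBH and SLC18A1, and a 4-fold change for all 6. For SLC6A2 the lower limit falls only just inside a 2-fold decrease, and after quantile normalization its change was -0.34. A 2-fold decrease of SLC6A2 is therefore not firmly excluded.

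For GCH1, DDC, SLC18A1 and SLC6A2, the replicates of each SK-N-FI group differed from each other by more than the group means did. Between the treated arrays, array 2 minus array 1 was -0.61 for GCH1, -0.46 for DDC, 0.45 for SLC18A1, 0.30 for SLC6A2, -0.295 for MAOA and -0.17 for DBH. Between the control arrays it was 1.02 for MAOA, -0.86 for SLC6A2, 0.68 for GCH1, -0.38 for DDC, -0.34 for SLC18A1 and -0.19 for DBH. The median absolute difference over the 8171 probe sets above background on all SK-N-FI arrays was 0.21 between treated and 0.19 between control arrays, and in both pairs GCH1, DDC, SLC18A1, SLC6A2 and MAOA exceeded it. Without control array 1 the change of SLC6A2 turned to 0.17 and that of MAOA to -0.12, and that of GCH1 was 0.00705. With each array left out in turn, the change ranged over 0.00705 to 0.69 for GCH1, -0.54 to -0.0934 for SLC18A1 and -0.29 to -0.0958 for DBH. DBH was the member above background whose treated and control arrays did not overlap, with both treated values lower. The separation was a near tie, 14.035 for the highest treated and 14.048 for the lowest control value, closer than the arrays within either group. TH, below background, was the other of the 9, with both treated values higher. Over all probe sets, 27.8% did not overlap, 13.8% with higher and 14% with lower treated values.

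In SK-N-AS none of the 9 members passed the test either, 0 had an unadjusted p under 0.05, and 0% of all probe sets were called, with 557 at an unadjusted p under 0.05 (limma, n = 3 per group). The log2 changes of the genes above background were -0.05 for DDC (95% interval -0.60 to 0.51), -0.20 for GCH1 (-0.76 to 0.36) and 0.25 for MAOA (-0.17 to 0.68). Each of the 3 intervals excludes a 2-fold change, given the spread among these arrays. That spread may be technical, so a 2-fold change between separate cultures is not excluded. GCH1 also lay a mean of only 0.66 above background. MAOA was the tightest of the 3, with SDs of 0.04 in treated and 0.10 in control cells, and all 3 of its treated values exceeded all 3 of its control values (adjusted p = 1.00). TH, below background, also had treated arrays all above the control arrays, and the other 7 members overlapped, where 7.31% of all probe sets did not (3.29% with higher and 4.02% with lower treated values). For DBH and SLC6A2, which were not above background in SK-N-AS, the changes are between background signals.

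**Figure D3:**
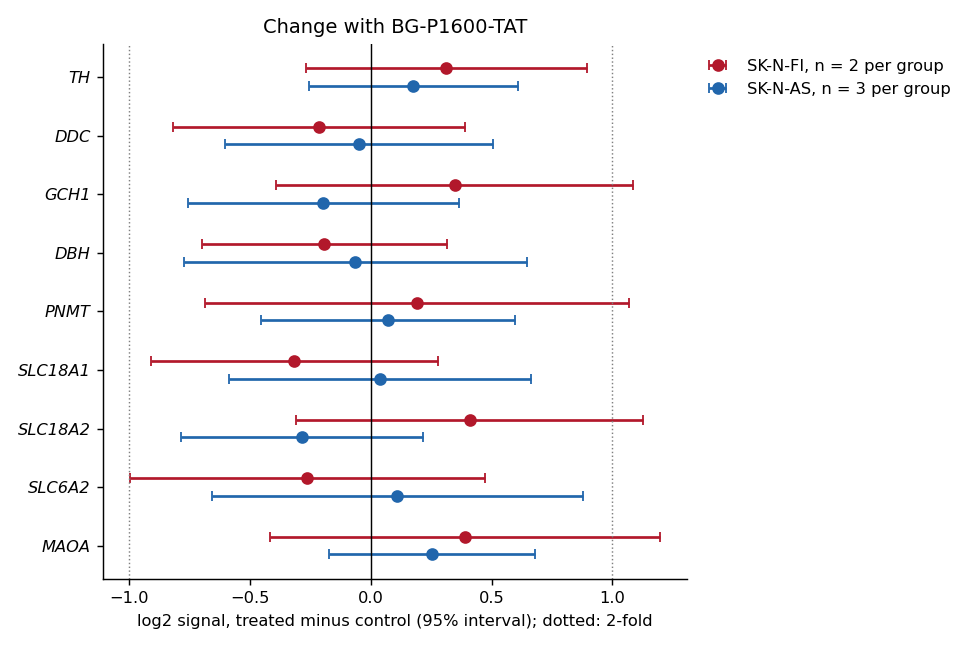
Change in log2 signal, treated minus control, for the 9 genes in SK-N-FI (red, n = 2 per group) and SK-N-AS (blue, n = 3 per group), with 95% intervals from limma; dotted lines mark a 2-fold change. Every interval includes 0, with changes of -0.32 to 0.41 in SK-N-FI cells and, in SK-N-AS cells, of -0.28 to 0.25.

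A single fit of the 10 arrays set the effects in the lines against each other. No member was called for a difference in effect (SK-N-FI minus SK-N-AS), 0 had an unadjusted p under 0.05, and 0% of all probe sets were called, with 457 at an unadjusted p under 0.05. For the genes measured in both lines the differences were 0.54 for GCH1 (95% interval -0.39 to 1.47), 0.14 for MAOA (-0.72 to 0.99) and -0.16 for DDC (-0.999 to 0.67). These intervals are wide enough to hold a 2-fold difference for GCH1. For DDC and MAOA 1 limit falls only just inside a 2-fold difference, and both differences turned sign with single arrays left out. A 2-fold difference is therefore not firmly excluded for DDC or MAOA.

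The genes around this pathway were described from lists of cofactor enzymes, other breakdown enzymes, other amine carriers, suppliers of ascorbate and copper to DBH, and catecholamine receptors, of which 34 genes were measured. None of the 34 passed the treatment test in either line. Tetrahydrobiopterin enzymes PTS, SPR, QDPR and PCBD1, which complete or recycle the cofactor, lay above background on all 10 arrays, and GCHFR, the feedback regulator of GCH1, exceeded it on 1 SK-N-AS array. As deposited, 4 of 5 were called higher in SK-N-FI in treated cells and 4 of 5 in control cells, where 47.8% of all probe sets were called higher in each. Their median log2 differences were 1.90 in treated and 1.96 in control cells, against 0.62 and 0.61 over all probe sets. After quantile normalization 1 of 5 was called higher in treated and 2 of 5 in control cells, where 22.2% and 22.8% of all probe sets were. PTS was called higher in both (2.33-fold in treated and 1.90-fold in control cells), QDPR not in treated cells (1.62-fold, limma adjusted p = 0.0502) but in control cells (1.86-fold), and GCHFR lower in both. SPR (log2 difference 0.18 in treated and 0.32 in control cells) and PCBD1 (0.43 in both) were no longer called.

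Among the suppliers of DBH, CYB561, the cytochrome that carries electrons into granules to regenerate ascorbate, was above background on all 4 SK-N-FI arrays and on 1 of 6 SK-N-AS arrays. CYB561 had 11.55 and 10.69 in treated and 11.57 and 11.29 in control SK-N-FI cells, against 6.73, 6.42 and 5.75 in treated and 6.35, 6.06 and 6.84 in control SK-N-AS cells, with no overlap of the lines (limma adjusted p = 1.98e-07 and 1.36e-07). SLC31A1, the copper importer, was above background on all 10 arrays and 5.47-fold higher in SK-N-FI in treated and 4.80-fold in control cells. ATP7A, which loads copper into the secretory pathway, was above background on all 4 SK-N-FI arrays and no SK-N-AS array. It was at least 3.12-fold higher in treated and at least 3.42-fold in control cells. After quantile normalization these bounds were 1.14-fold and 1.19-fold, and the treated comparison was not called (limma adjusted p = 0.121). SLC23A2, the remaining gene of this list, was above background on 2 SK-N-FI and 2 SK-N-AS arrays. Its line difference was not called (limma adjusted p = 0.438 in treated and 0.0815 in control cells). After quantile normalization it was -0.85 and -0.52. As deposited, 3 of the 4 were called higher in SK-N-FI in each comparison, where 47.8% of all probe sets were.

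Of the other carriers and breakdown enzymes, MAOB, the other monoamine oxidase, was below background on all 10 arrays, as were SLC6A3 and SLC6A4, the dopamine and serotonin transporters. ALDH2 and ALDH3A2, which oxidise aldehydes, were above background on all 10. ALDH2 had log2 differences, SK-N-FI minus SK-N-AS, of -0.55 in treated and -0.19 in control cells as deposited, neither called, and was called lower in SK-N-FI after quantile normalization (0.245-fold and 0.317-fold). SLC29A4, a low-affinity monoamine carrier, was above background on all 4 SK-N-FI arrays and no SK-N-AS array, at least 5.71-fold higher in SK-N-FI in treated and 4.73-fold in control cells (1.97-fold and 1.6-fold after quantile normalization).

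Of 13 receptors of catecholamines, DRD2, the dopamine D2 receptor, was the 1 gene above background, on all 4 SK-N-FI arrays. DRD2 had 10.99 and 10.12 in treated and 10.57 and 10.99 in control SK-N-FI cells, and between 3.32 and 3.97 in SK-N-AS. It was at least 12.7-fold higher in SK-N-FI in treated and at least 13.7-fold in control cells, or 4.23-fold and 4.43-fold after quantile normalization (limma adjusted p = 2.76e-09 and 2.08e-09 as deposited). The other 12, among them the adrenergic receptors ADRA2A, ADRA2C and ADRB1, were below background on all 10 arrays.

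**Figure D4:**
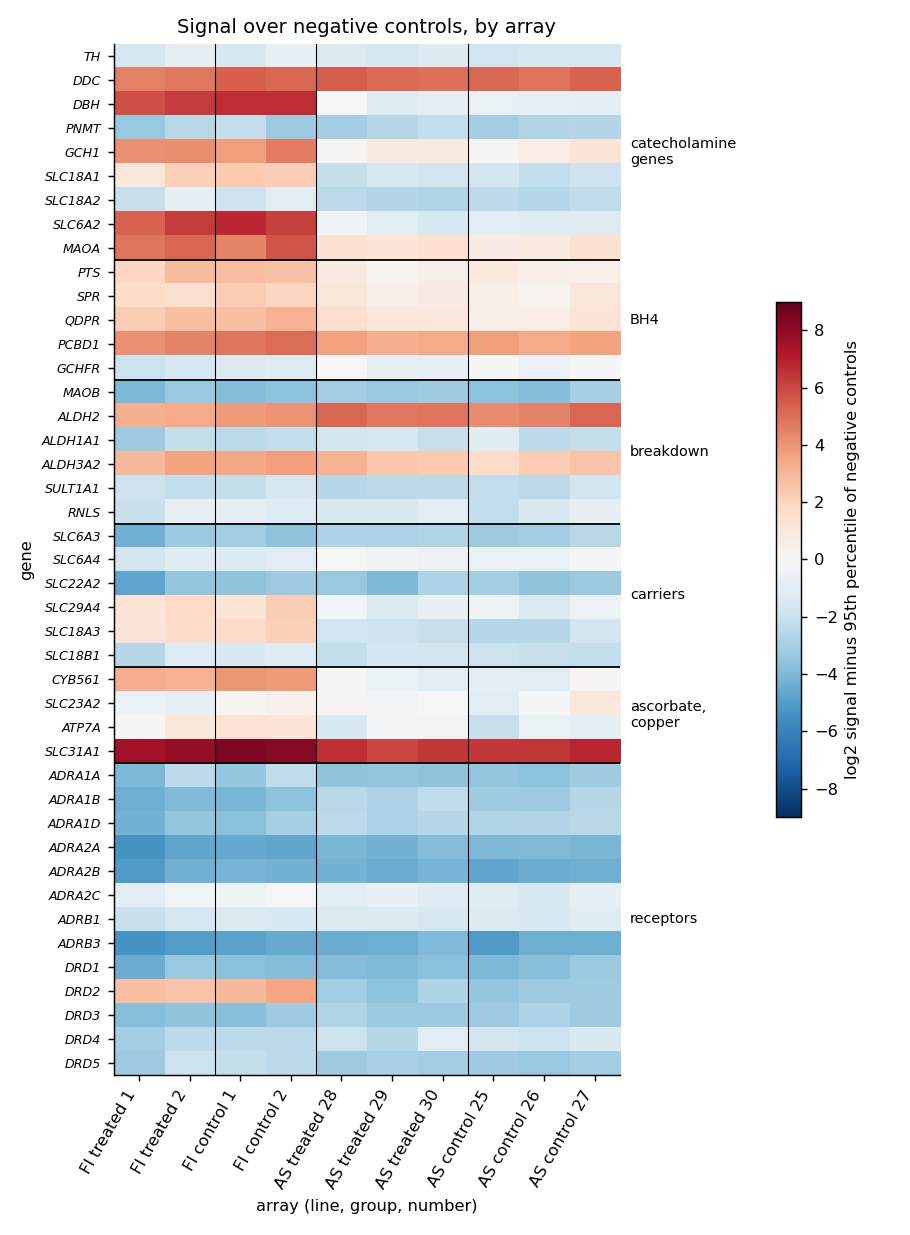
Log2 signal minus the 95th percentile of the negative controls of the same array, for the 9 catecholamine genes and 34 genes of the surrounding lists (rows) on the 10 arrays (columns); red is above and blue below that limit. DBH, SLC6A2, SLC18A1, SLC29A4, SLC18A3, ATP7A and DRD2 are red on the 4 SK-N-FI arrays alone. DDC, GCH1, MAOA, PTS, SPR, QDPR, PCBD1, ALDH2, ALDH3A2 and SLC31A1 are red on all 10.

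Genes with profiles most like each detected member were ranked among 7194 other named genes above background on all SK-N-FI arrays, by the root mean square difference of log2 profiles over 10 arrays, each less its own mean. This distance is set mainly by the difference between the lines, which all genes near a member share. For DBH, SLC6A2 and SLC18A1 it uses SK-N-AS signals that were not above background, so these distances are partly between background signals. By this distance SLC6A2 was the third nearest gene to DBH at 0.28, after FAIM2 and PTER at 0.26 each, and DBH was the nearest to SLC6A2. MAOA lay nearest to DET1 (0.19), SOCS2 and SNAPC3, and GCH1 to MTMR7 (0.23), GTSE1 and NEFM, a neurofilament subunit. GCH1 and MAOA ranked number 32 in each other's order at 0.32. SLC18A1 was nearest to H1-1 (0.24), PCDH9 and PPP1R16B. DDC had SNUPN, DNAJB12 and NGDN nearest at 0.08 to 0.10. Its nearest detected member, GCH1, lay at 1.86. TH, PNMT and SLC18A2, below background, were not ranked, so how near they lie to DDC is not given.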

How the data were processed

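The authors deposited log2 signals per probe set for 10 whole-transcript arrays, in a table of 24351 probe sets, of which 2903 were controls. Per the submitters' processing notes, Transcriptome Analysis Console 4.0.1.36 and RMA were used, in roles not given there. RMA summarises probes and equalises arrays, so a change shared by most genes would be removed. Genes were named through the platform annotation (17709 of 21448 probe sets), and all 21448 entered each test. Arrays were grouped by their titles. The comparisons, of treatment inside a line and of lines inside a treatment, were fitted in R 4.3.3 by limma 3.58.1 (eBayes after lmFit, Benjamini-Hochberg adjustment over all probe sets, threshold 0.05). The fits were tested on simulated data. Above background means over the 95th percentile of 612 negative controls.

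The members and lists were chosen with earlier results of these data known. Named genes were the 9 members, genes of the surrounding lists, the 3 genes nearest each detected member and, from lists of noradrenergic, mesenchymal, cholinergic and Schwann cell markers, examples chosen after their values were seen. Of the 41 listed surrounding genes, 34 were measured, and the other 7 were not analysed here. Arrays give no count depth, so their number limits the precision. For SK-N-FI, 2 arrays per group were analysed here, fewer than the design text describes. Between groups of SK-N-FI, deviations of arrays with the same number correlated at -0.171, and the numbers were not taken as pairs. No 2 arrays held identical values. Alternatives were other scalings, dim probe sets left out, an intensity trend, array weights, a shared fit, blocks and left-out arrays.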

Additional observations from a re-analysis of the deposited data

How the results depend on the processing

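The absence of treatment calls held under every alternative run: 0 of 21448 probe sets were called in SK-N-FI with the replicate block (471 at an unadjusted p under 0.05) and with the crossed numbers as a block, an alternative chosen after seeing the data (924), and 0 in all other settings of limma in either line or for the difference of effects. The block changed no other call. With dim probe sets left out, line calls numbered 7864 of 9561 in treated and 8288 of 9927 in control cells, as fewer probe sets were tested. At the 99th percentile of the negative controls, DDC was the 1 member above background on all SK-N-AS arrays, and 4 remained in SK-N-FI (DDC, DBH, SLC6A2 and MAOA). At the maximum of the negative controls, 0 were above it on all arrays of either line. The calls of DBH, GCH1, SLC18A1, SLC6A2 and MAOA between the lines passed under every alternative. Under median scaling the line difference was -0.32 in treated and -0.16 in control cells for DDC and -0.15 and -0.28 for PNMT, and under quantile normalization it was -0.76 and -0.54 for DDC, none of these values called except -0.76. Below background, TH lost its line calls under both scalings, and SLC18A2 lost its control call under median scaling. Leaving out SK-N-AS arrays 25 and 28, also chosen after seeing the data, gave a DDC line difference in treated cells of 0.68 (limma adjusted p = 0.0456), a treatment change of -0.0417 for SLC6A2 in SK-N-AS, and differences of effect of 0.0065 for DBH and -0.059 for PNMT. Array weights gave 0.0158 for DDC in SK-N-AS. With each array left out in turn, changes with treatment that turned sign ranged in SK-N-FI from -0.44 to 0.0152 for DDC, -0.40 to 0.78 for PNMT, -0.69 to 0.17 for SLC6A2 and -0.12 to 0.90 for MAOA. In SK-N-AS they ranged from -0.21 to 0.13 for DDC, -0.38 to 0.13 for DBH, -0.0402 to 0.27 for PNMT, -0.17 to 0.25 for SLC18A1 and -0.21 to 0.45 for SLC6A2. For the difference of effects the ranges were -0.13 to 0.40 for TH, -0.39 to 0.0645 for DDC, -0.32 to 0.19 for DBH, -0.47 to 0.71 for PNMT, -0.80 to 0.0568 for SLC6A2 and -0.37 to 0.65 for MAOA. The PNMT line difference in control cells ranged from -0.0309 to 1.15, and was called without SK-N-FI control array 2. Signal over background limits TH, PNMT and SLC18A2 in both lines and DBH, SLC18A1 and SLC6A2 in SK-N-AS. For the other changes of sign the cause was not tested.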

Other observations

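Acetylcholine is the other transmitter of the autonomic lineage, and its genes were looked at beside those of noradrenaline. SLC18A3, the vesicular acetylcholine carrier, had log2 signals of 9.44 and 9.21 in treated and 9.34 and 9.55 in control SK-N-FI cells, all above background, and between 4.48 and 5.14 in SK-N-AS, none above it. SLC5A7, the choline transporter of cholinergic terminals, had 9.57 and 10.07 in treated and 9.63 and 9.92 in control SK-N-FI cells, against 2.81 to 3.35 in SK-N-AS. SLC18A3 was at least 5.39-fold higher in SK-N-FI in treated and 5.42-fold in control cells, and SLC5A7 at least 7.61-fold and 6.82-fold. After quantile normalization these bounds were 1.86-fold and 1.81-fold for SLC18A3 and 2.56-fold and 2.25-fold for SLC5A7. CHAT, the enzyme that makes acetylcholine, was below background on all 10 arrays. Carriers of both transmitters were thus measured in SK-N-FI, while TH and CHAT, which encode the first synthetic enzymes of each, were below background there.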
